A study of Mus musculus with 8 samples.

Results

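DNA replication and S phase genes were followed in the mouse myeloid line 32Dcl3, whose immature cells multiply in interleukin-3 (IL-3) and begin granulocytic maturation when given granulocyte colony-stimulating factor (G-CSF). A list of 51 genes was taken, and every probe set annotated with exactly 1 gene symbol equal to a listed one was used. On the array 50 of the 51 genes had such a probe set, out of 18193 genes in all, and they shared 110 probe sets. Chaf1a was not analysed here. The cells carried either the retroviral vector pMYs with FLAG-tagged mutant ASXL1 (ASXL1-MT) or the empty pMYs vector (mock), both with the same IG cassette. ASXL1 is a chromatin regulator mutated in myeloid neoplasms, and neither the mutation nor the species of the cDNA is stated in the labels. Samples of these 2 cultures were taken in IL-3 and at 2, 6 and 24 h of G-CSF treatment. Each condition has 1 Affymetrix array, which makes 8, and this small number limits the precision. No label describes separate cultures for one condition, so the 2 differently transduced cultures stand in for replicates of a time point. The p-values set each difference between time points or vectors against a spread. The spread used is how far the time courses of these 2 cultures depart from a constant difference. That spread may be technical, or may hold vector effects that change with time.

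Before S phase, the origin recognition complex, Cdc6 and Cdt1 load the ring-shaped MCM helicase onto DNA, a step called licensing. Cdc45 and the GINS proteins then switch the helicase on, polymerases alpha, delta and epsilon copy the strands, and the Pcna clamp holds the delta and epsilon enzymes on the template. Many of these genes are transcribed from late G1 on under E2F factors, which the RB family holds in check until cyclin-dependent kinases release them. Myeloid progenitors divide while they begin to make granules, and cell division ends as neutrophils mature.

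The values are log2 expression relative to the median of the same probe set over the 8 arrays, with base 2 assumed, so they compare arrays within a gene and never genes with each other. A probe set was called bright when its level before centring was at least 8 on the log2 scale, as estimated from the rounding of the deposited numbers, an estimate with an error of its own, so that probe sets near the limit can lie on the wrong side of it. Of the 110 probe sets 89 were bright, and each of the 50 genes had at least 1 bright probe set and was tested. Changes were tested with limma in 1 fit of all 8 arrays on time point and vector, over the 12894 genes above a filter on dim genes. Rose and fell are said here of genes whose adjusted p (Benjamini-Hochberg over all genes tested) was under 0.05, and errors are standard errors (SE) of that fit. The 6 granulocyte progenitor markers Mpo, Elane, Prtn3, Ctsg, Ms4a3 and Csf3r were all bright. None of 5 measured lymphoid markers and 1 of 6 fibroblast markers was. Also bright were 4 of 8 neutrophil maturation markers and 3 of 6 eosinophil, basophil and mast cell markers. Among measured markers, 2 of 5 for monocytes and macrophages and 2 of 4 for erythroid cells and megakaryocytes were bright. After 24 h in G-CSF all 6 progenitor markers rose, and so did the 5 tested of 8 neutrophil maturation genes, by 3.01 (Ltf) to 5.25 (Lrg1) log2 units. All 5 tested of 6 eosinophil, basophil and mast cell markers also rose, by 0.77 (Mcpt8) to 6.51 (Prg2). Ltf and Prg2 were not bright, and a gene could pass the filter on dim genes through its 2 highest arrays. Over all genes tested, 15.2% rose and 12.2% fell at 24 h. Of the monocyte and macrophage markers 2 of 3 tested rose, of the erythroid and megakaryocyte markers 2 of 4 rose and 1 fell, and none of the 3 lymphoid and 3 fibroblast markers tested passed. These marker changes accompany the 24 h results below, and their part in them was not tested. In bulk RNA, fewer cells in S phase and less RNA per cell cannot be told apart.

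Across the time course the replication genes were mostly level or slightly higher at 6 h and lower at 24 h, in both cultures. In 27 of the 50 genes the 24 h array was the lowest of the 4 time points in both cultures, a share of 54%, against 16.4% of the 12894 genes tested and 23.4% of the 7718 genes kept by a stricter filter on dim genes. In 20 of the 50 the 6 h array was the highest in both cultures. That is 40%, against 15.9% of all genes tested and 18.9% under the stricter filter. The same held for 12 of 34 G2 and M phase genes tested and 14 of 38 replication genes outside the list. The 24 h array was the lowest in both cultures for 7 of those 34 and 11 of those 38. Within single cultures the 24 h array was lowest for 32 of the 50 genes (64%) in ASXL1-MT cells, against 26% of all genes tested and 30.3% of the brighter ones, and for 29 (58%) in mock cells, against 27.7% and 32.1%. Genes with both features were Fen1, Gins2, Lig1, Mcm3, Mcm4, Mcm5, Mcm7, Rfc3, Rpa1, Rrm1 and Tk1.

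**Figure D1:**
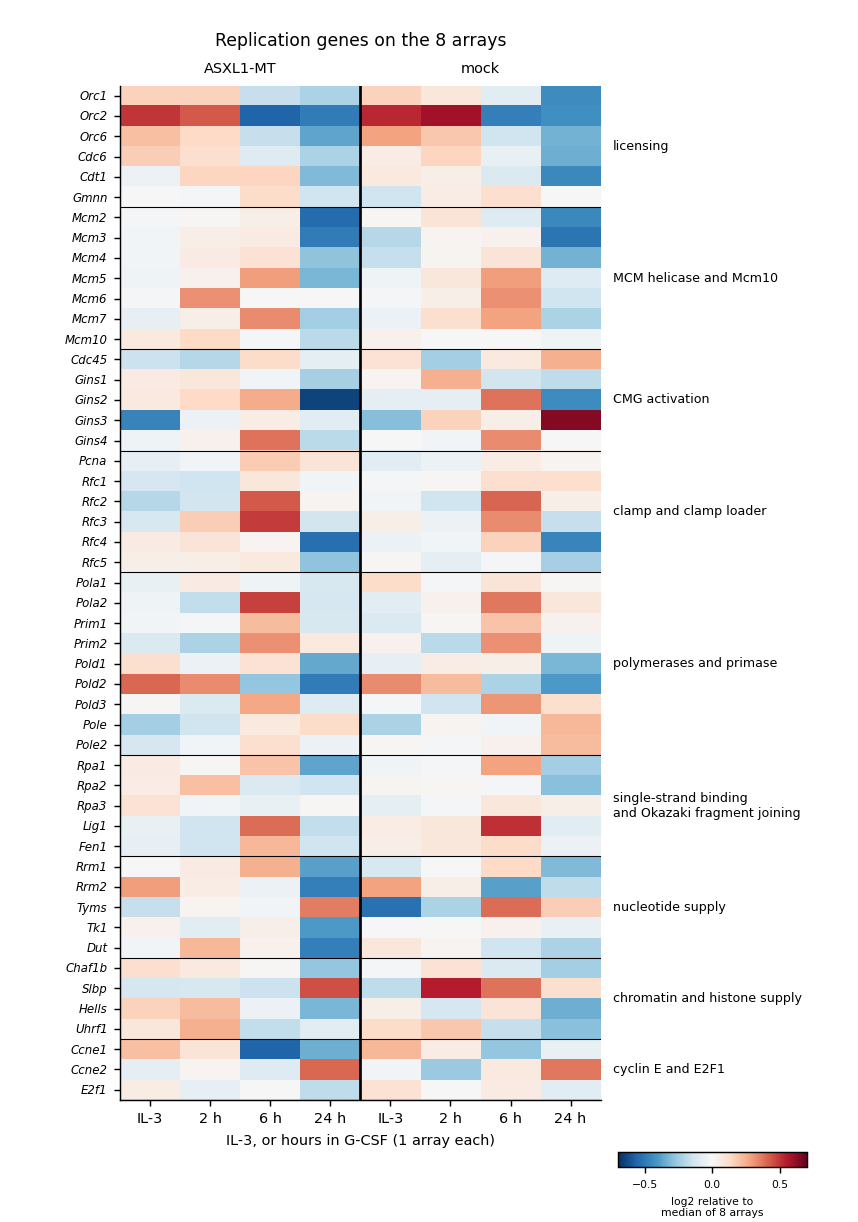
Centred log2 expression of the 50 replication genes (down the page, grouped by role) on the 8 arrays, with ASXL1-MT left and mock right and, within each, IL-3 and 2, 6 and 24 h in G-CSF. Blue is below and red above the gene's median over the arrays; the 24 h columns are blue for most genes, and the 6 h columns red for many.

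In G-CSF at 24 h against IL-3, 8 of the 50 genes fell, against 12.2% of the genes tested, and 1 rose, against 15.2%. At the probe sets that stood for the genes all 8 fell by less than 2-fold, while both other bright probe sets of Orc2 were lower by more than that. The 8 were Orc1, Orc2, Orc6, Cdc6, Mcm2, Mcm3, Rfc4 and Pold2, and the 1 that rose was Pole. The share that fell, 16%, lies near the background. By sign alone, 33 of 50 genes (66%) were lower in both cultures, against 33% of all genes tested and 41.4% of the brighter ones. The median difference was -0.19 over the 50 genes and 0.09 over all genes tested, and within the cultures it was -0.21 in ASXL1-MT cells and -0.17 in mock cells. With each array centred on its median 0 rose, against 13.4% of the genes tested, and 10 fell, against 13.9%. After quantile normalization 0 rose, against 10.1%, and 5 fell, against 11.3%. The stricter filter gave 4 higher and 19 lower, against 29.2% and 26.5% of its 7718 genes, and no filter gave 0 higher and 3 lower, against 5.82% and 4.17% of 18193 genes. The counts also moved when 1 array was left out. Without an IL-3 or 24 h array, a single array is left on that side of the comparison. Such a fit cannot show whether particular arrays carried the calls. The members passing were 3 without either 2 h array, against 19.4% of the genes tested, and 4 without either 6 h array, against 17.2%.

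At 24 h against 6 h in G-CSF, 5 of the 50 genes fell, against 3.13% of the genes tested, and 0 rose, against 3.58%. They were Gins2, Lig1, Mcm3, Rrm1 and Mcm7. At 24 h 38 of the 50 genes (76%) were lower than at 6 h in both cultures, against 35.4% of all genes tested and 41.4% of the brighter ones, and the median difference was -0.22, against 0.00 over all genes tested. This comparison shares its arrays with the other 2 and is no separate evidence. This count too moved with the setting. Under the stricter filter 18 fell and 0 rose, against 17.3% and 15.4% of its genes, and without a vector term 11 fell, against 5.21% of the genes tested. With arrays centred 3 fell, against 3.02%, and with probe set means 2 fell, against 1.82% of 11235 genes. No member fell without a filter (0% of the genes), after quantile normalization (0.256%) or with a variance trend (0.00776%). Leaving out either IL-3 or either 2 h array left 0 members in limma, against 0% of the genes tested. Without a 6 h or 24 h array, a single array is left on that side.

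At 6 h against IL-3, 2 genes rose (Rfc2 and Lig1), against 10.4% of the genes tested, and 4 fell (Orc2, Ccne1, Pold2 and Orc6), against 7.47%. The median difference was 0.13 over the 50 genes and 0.11 over all genes tested. Quantile normalization took the median of all genes to 0.01 and that of the replication genes to 0.07. In both cultures 25 of 50 genes (50%) were higher, against 44.8% of all genes tested and 48.9% of the brighter ones. With the stricter filter 11 rose and 5 fell, against 26.4% and 19.2% of its genes. With no filter 1 fell, against 1.56% of its genes. Without either 2 h array 1 member passed, against 5.52% of the genes tested. Without either 24 h array 1 passed, against 6.14%. Leaving out an IL-3 or 6 h array leaves a single array on that side of the comparison. At 2 h no member passed in limma, and 1 of the 12894 genes passed, a share of 0.00776%. No member had an unadjusted p under 0.05 in that fit, while 1074 of the 12894 genes did. The differences at 2 h ran from -0.24 (Rrm2) to 0.44 (Gins3), with a median of 0.03.

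**Figure D2:**
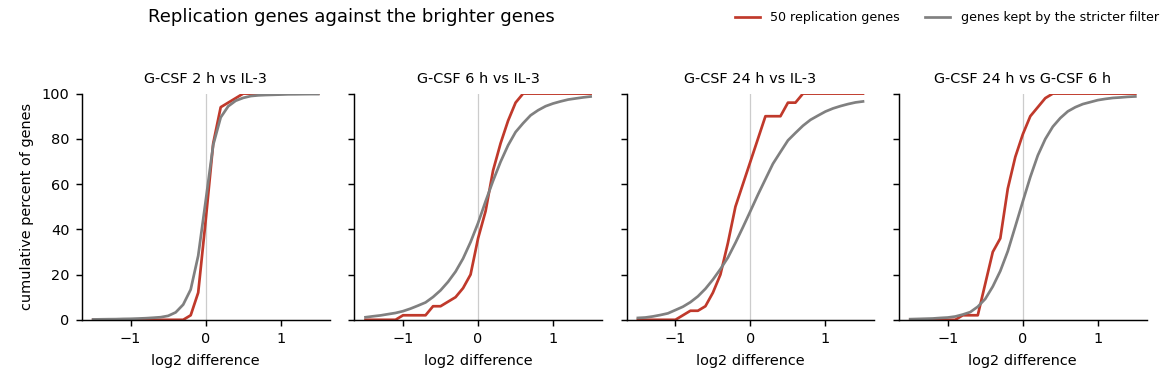
Cumulative percent of genes (vertical) up to each log2 difference (horizontal), for the 50 replication genes in red and the 7718 genes kept by the stricter filter in grey, in 4 comparisons. At 2 h 12% of the replication genes lie at or below -0.10, against 28.3% in grey, and from 0.10 on the curves run close together; at 24 h against IL-3 and against 6 h the red curve lies left of the grey one except in its lowest part, with medians of -0.19 and -0.22, against 0.03 and -0.02.

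The start regions of these genes were searched for the DNA words that E2F factors are known to bind. The words TTTCCCGC, TTTCGCGC, TTTGCCGC and TTTGGCGC were looked for on both strands of RefSeq windows from 250 bases before to 50 after each annotated start (build GRCm38.p6). Windows were found for 42 of the 51 genes, and 16 of these (38.1%) held at least 1 word in at least 1 window, against 704 of 27025 genes (2.6%) in the whole table and 1 of 30 G2 and M phase genes (3.33%). The windows had a median GC content of 61.3% in the replication genes, 59% in the G2 and M phase genes and 52.7% in all genes, and the words are rich in G and C. CCAAT occurred in 59.5% of the replication genes, 76.7% of the G2 and M phase genes and 41.1% of all genes. The E-box CACGTG occurred in 16.7%, 6.67% and 8.09% of them. Below are the 250 bases upstream of the start, 5′ to 3′ on the gene's strand, with E2F words in capitals, for 2 licensing genes that fell at 24 h, for 2 helicase genes with overlapping words, and for Orc2, which had the largest fall and no such word. Overlapping words share their capitals, as in the 12-base runs of Mcm5 and Mcm6.
Cdc6, chr11:98907901-98908150, plus strand: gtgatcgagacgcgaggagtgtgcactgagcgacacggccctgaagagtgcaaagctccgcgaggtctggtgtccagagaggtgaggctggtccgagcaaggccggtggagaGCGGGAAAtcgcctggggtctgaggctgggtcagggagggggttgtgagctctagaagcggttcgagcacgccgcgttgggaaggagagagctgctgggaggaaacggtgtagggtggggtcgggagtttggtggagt
Orc1, chr4:108579204-108579453, plus strand: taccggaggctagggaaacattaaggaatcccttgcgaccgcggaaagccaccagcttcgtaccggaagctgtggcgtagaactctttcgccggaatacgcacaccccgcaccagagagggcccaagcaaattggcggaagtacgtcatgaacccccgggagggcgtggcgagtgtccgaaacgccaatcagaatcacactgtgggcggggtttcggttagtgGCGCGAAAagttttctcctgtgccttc
Mcm5, chr8:75109259-75109508, plus strand: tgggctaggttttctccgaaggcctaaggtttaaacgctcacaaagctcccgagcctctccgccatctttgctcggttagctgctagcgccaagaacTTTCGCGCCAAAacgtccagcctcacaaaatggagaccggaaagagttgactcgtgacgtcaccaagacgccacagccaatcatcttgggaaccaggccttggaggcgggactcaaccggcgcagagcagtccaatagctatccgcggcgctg
Mcm6, chr1:128359706-128359955, minus strand: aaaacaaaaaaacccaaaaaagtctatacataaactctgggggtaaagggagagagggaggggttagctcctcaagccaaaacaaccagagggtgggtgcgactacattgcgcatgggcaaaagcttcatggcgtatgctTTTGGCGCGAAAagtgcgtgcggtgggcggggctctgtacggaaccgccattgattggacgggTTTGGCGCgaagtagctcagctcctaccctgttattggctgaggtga
Orc2, chr1:58505110-58505359, minus strand, the farther upstream of its 2 windows: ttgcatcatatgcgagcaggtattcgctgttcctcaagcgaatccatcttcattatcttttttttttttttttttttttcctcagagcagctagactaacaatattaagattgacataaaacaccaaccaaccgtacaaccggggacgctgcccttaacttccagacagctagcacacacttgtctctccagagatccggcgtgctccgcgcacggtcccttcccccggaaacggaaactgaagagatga
The word in Cdc6 began at base -138 from the start and that in Orc1 at base -27. Mcm5 held words from -153 and -149, and Mcm6 from -110, -106 and -47. Neither window of Orc2 held a word. Among genes with values, the 16 with a word had a median 24 h difference of -0.17 (13 negative) and the 25 without one -0.25 (17 negative). Of the 8 genes that fell at 24 h, Cdc6, Mcm3 and Orc1 held a word. A match is a description of the letters and not of binding.

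Licensing genes were lower at 24 h than in IL-3. At 24 h 4 of the 6 fell, against 12.2% of the genes tested, and 0 rose, against 15.2%. The median was -0.44, and at 6 h 2 fell, against 7.47%. Orc2, a subunit of the origin recognition complex, stood at 0.50, 0.43, -0.56 and -0.49 in ASXL1-MT cells (IL-3, then 2, 6 and 24 h) and at 0.53, 0.59, -0.48 and -0.43 in mock cells. The 4 arrays in IL-3 and at 2 h were high and the 4 at 6 and 24 h low, with no overlap. The differences from IL-3 were -1.04 ± 0.08 (SE) at 6 h, a 2.05-fold decrease (adjusted p = 0.0114), and -0.97 ± 0.08 at 24 h (adjusted p = 0.00696). Its other bright probe sets changed by -1.20 and -1.38 at 24 h. The 24 h call held in 9 of 13 alternatives. The remaining alternatives left out an IL-3 or 24 h array, so that a single array stood on that side.

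Orc6, the smallest subunit of the complex, declined over the whole course, at 0.21, 0.14, -0.16 and -0.37 in ASXL1-MT cells and 0.28, 0.19, -0.14 and -0.33 in mock cells. Each time point's pair lay below the pair before it. Orc6 fell by 0.39 ± 0.08 at 6 h (adjusted p = 0.0402) and fell by 0.59 ± 0.08 at 24 h (adjusted p = 0.0127). Orc1, an ATPase subunit of the complex, had 0.16, 0.16, -0.16 and -0.22 in ASXL1-MT cells and 0.16, 0.08, -0.08 and -0.44 in mock cells. Both 24 h arrays were its lowest. It fell by 0.49 ± 0.11 at 24 h (adjusted p = 0.0382).

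Cdc6, the ATPase that loads the helicase with the origin recognition complex, had 0.17, 0.12, -0.09 and -0.22 in ASXL1-MT cells and 0.05, 0.15, -0.05 and -0.34 in mock cells. The 24 h arrays were the lowest and the 6 h arrays lay between. The 24 h difference was -0.39 ± 0.09 (adjusted p = 0.0473). Cdt1, its partner in loading, had -0.31 and -0.45 on the 24 h arrays in ASXL1-MT and mock cells, against -0.04 and 0.07 in IL-3. The difference of -0.39 ± 0.12 did not pass (adjusted p = 0.0797), and averaged over its 3 probe sets, 1 of them dim, it was 0.13. Gmnn encodes geminin, the inhibitor of Cdt1, and its 24 h difference was 0.00 ± 0.10, with a sign that changed between settings.

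All 7 genes of the MCM helicase and Mcm10 had negative 24 h differences, with a median of -0.18. Of these 2 fell, against 12.2% of the genes tested. Mcm6 turned to 0.09 with probe set means and 0.01 after quantile normalization. Mcm2 had -0.01, 0.01, 0.04 and -0.54 in ASXL1-MT cells and 0.01, 0.09, -0.09 and -0.45 in mock cells. Only the 24 h arrays stood apart, below the 6 others. Mcm2 fell by 0.49 ± 0.10 at 24 h (adjusted p = 0.0297), and its other bright probe set differed by -0.78. Mcm3 had -0.02, 0.04, 0.06 and -0.49 in ASXL1-MT cells and -0.20, 0.02, 0.03 and -0.51 in mock cells. Here too the 24 h arrays were well below the rest, and within each culture the 6 h array was the highest. Mcm3 fell by 0.39 ± 0.09 against IL-3 (adjusted p = 0.0417) and fell by 0.55 ± 0.09 against 6 h (adjusted p = 0.0483). With the mean of its 5 probe sets neither difference passed.

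Mcm7 had -0.06, 0.04, 0.33 and -0.24 in ASXL1-MT cells and -0.04, 0.11, 0.28 and -0.22 in mock cells. The 6 h arrays were the highest and the 24 h arrays the lowest in both cultures. It fell by 0.53 ± 0.08 between 6 and 24 h (adjusted p = 0.0452), while the 24 h difference from IL-3 was -0.18 ± 0.08 (adjusted p = 0.195). Mcm5 followed the same order, at -0.03, 0.03, 0.29 and -0.32 in ASXL1-MT cells and -0.03, 0.08, 0.29 and -0.09 in mock cells, with a 24 h to 6 h difference of -0.50 ± 0.10 that did not pass (adjusted p = 0.0653). Mcm4 differed by -0.40 ± 0.08 over that interval (adjusted p = 0.0658). Mcm6 showed no common course, with 0.32 at 2 h in ASXL1-MT cells and 0.32 at 6 h in mock cells as its high values. Mcm10, which helps to start the helicase, differed by -0.16 ± 0.11 at 24 h.

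**Figure D3:**
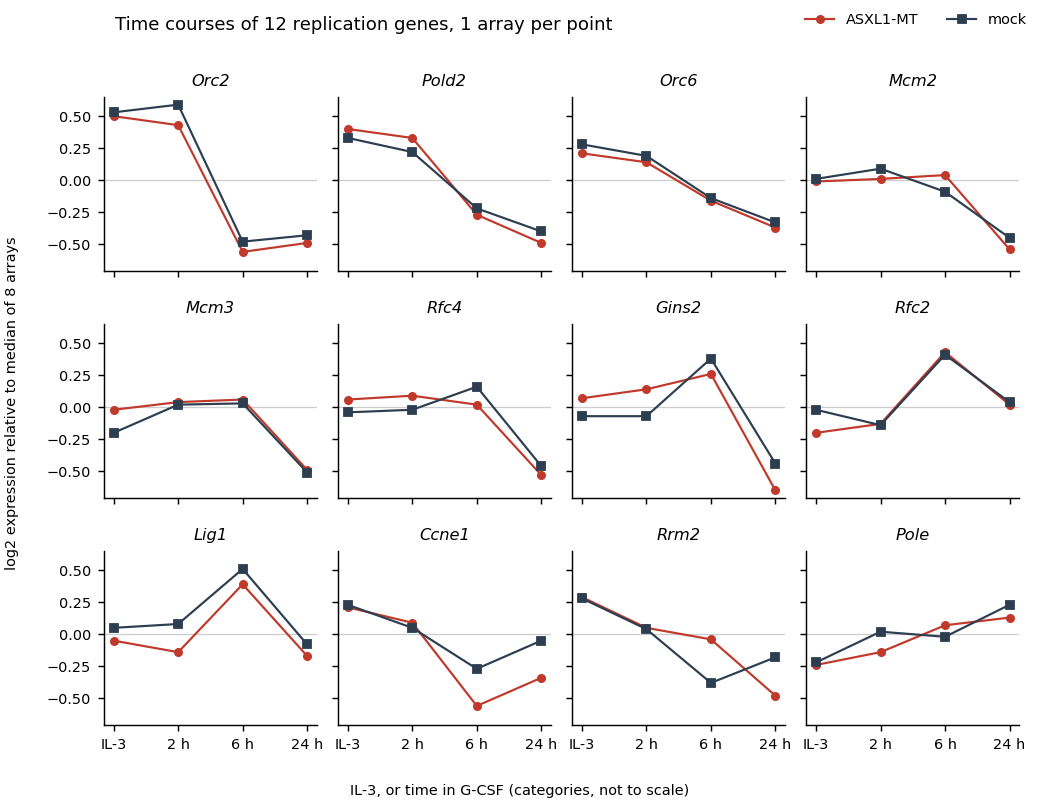
Centred log2 expression (vertical) of 12 replication genes in IL-3 and at 2, 6 and 24 h in G-CSF (horizontal, evenly spaced), with 1 array per point, ASXL1-MT as red circles and mock as dark squares. Orc2 and Pold2 are low from 6 h on, Mcm2, Mcm3, Rfc4 and Gins2 are low at 24 h, and Rfc2 and Lig1 peak at 6 h.

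The 5 genes that switch the helicase on did not move together. At 24 h none of them passed against IL-3, while 27.4% of the genes tested did. Gins2, a subunit of the GINS complex, had 0.07, 0.14, 0.26 and -0.65 in ASXL1-MT cells and -0.07, -0.07, 0.38 and -0.44 in mock cells. Its highest arrays were those at 6 h and its lowest those at 24 h, and it fell by 0.86 ± 0.14 between them (adjusted p = 0.0487), the largest such fall among the 50 genes in this fit. Against IL-3 the 24 h difference was -0.54 ± 0.14 (adjusted p = 0.0574). Gins3, another GINS subunit, had the highest 24 h difference of all, 0.67 ± 0.20 (adjusted p = 0.0811), and its cultures parted at 24 h, with -0.08 in ASXL1-MT cells against 0.64 in mock cells. A second bright probe set of Gins3 had the opposite order there, 0.35 in ASXL1-MT cells against 0.01 in mock cells. Gins4 differed from IL-3 by -0.09 ± 0.10, Gins1 by -0.24 ± 0.11 and Cdc45 by 0.12 ± 0.14.

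The clamp and the subunits of its loader did not share 1 course. Pcna, the sliding clamp and a common marker of proliferation, varied little, from -0.06 to 0.18 in ASXL1-MT cells and from -0.08 to 0.05 in mock cells. Its 24 h difference was 0.12 ± 0.08 (adjusted p = 0.331). Rfc2, a loader subunit, had -0.20, -0.13, 0.43 and 0.02 in ASXL1-MT cells and -0.02, -0.14, 0.41 and 0.04 in mock cells. The 6 h arrays stood above the 6 others, and Rfc2 rose by 0.53 ± 0.09 at 6 h (adjusted p = 0.0336). Its other bright probe sets differed by 0.45 and 0.20 at 6 h. The latter differed by -0.16 in ASXL1-MT cells and by 0.55 in mock cells. Rfc4, another subunit, had 0.06, 0.09, 0.02 and -0.53 in ASXL1-MT cells and -0.04, -0.02, 0.16 and -0.46 in mock cells. Only its 24 h arrays were low, and it fell by 0.50 ± 0.10 against IL-3 (adjusted p = 0.0338), with -0.53 at its second probe set. Rfc3 differed by -0.10 ± 0.12, Rfc5 by -0.28 ± 0.09 and Rfc1 by 0.12 ± 0.08 at 24 h, none of them passing.

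Among the 9 polymerase and primase genes 1 fell and 1 rose at 24 h, against 12.2% and 15.2% of the genes tested. The median was 0.02. Pold2, an accessory subunit of polymerase delta, had 0.40, 0.33, -0.27 and -0.49 in ASXL1-MT cells and 0.33, 0.22, -0.22 and -0.40 in mock cells. Its course was that of Orc2 and Orc6, high in IL-3 and at 2 h and low at 6 and 24 h with no overlap. It fell by 0.61 ± 0.09 at 6 h (adjusted p = 0.0262) and fell by 0.81 ± 0.09 at 24 h, a 1.75-fold decrease (adjusted p = 0.0107), and has 1 probe set. Pole, the catalytic subunit of polymerase epsilon, had -0.24, -0.14, 0.07 and 0.13 in ASXL1-MT cells and -0.22, 0.02, -0.02 and 0.23 in mock cells. Its 24 h arrays were the highest and its IL-3 arrays the lowest, and it rose by 0.41 ± 0.10 (adjusted p = 0.0473). That call was lost when arrays were centred (adjusted p = 0.0566) and after quantile normalization (adjusted p = 0.0574), in a range of 0.0102 to 0.198 over its 13 alternatives.

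Pola2, Prim1, Prim2 and Pold3 had their highest array at 6 h in both cultures. Pold3, another accessory subunit of polymerase delta, had 0.27 and 0.31 on the 6 h arrays in ASXL1-MT and mock cells, and its 24 h difference was 0.01 ± 0.10. Its other bright probe sets differed by -0.30 and -0.33 at 24 h, so its probe sets disagree. Pola2, a polymerase alpha subunit, differed by 0.48 ± 0.12 at 6 h (adjusted p = 0.0712) and the primase subunit Prim2 by 0.36 ± 0.09 (adjusted p = 0.0726). Prim1, the catalytic primase subunit, differed by 0.27 ± 0.09 at 6 h. Pold1, the catalytic subunit of polymerase delta, differed by -0.37 ± 0.10 at 24 h (adjusted p = 0.0659), Pole2 by 0.15 ± 0.12 and Pola1 by -0.08 ± 0.10.

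Of the 5 genes for single-strand binding and Okazaki fragment joining none passed at 24 h against IL-3, while 27.4% of the genes tested did. Lig1, the ligase that seals Okazaki fragments, had -0.05, -0.14, 0.39 and -0.17 in ASXL1-MT cells and 0.05, 0.08, 0.51 and -0.08 in mock cells. The 6 h arrays were far above the 6 others. Lig1 rose by 0.45 ± 0.08 at 6 h (adjusted p = 0.0372) and fell by 0.58 ± 0.08 from there to 24 h (adjusted p = 0.0424). Rpa1, the large subunit of the single-strand binding protein RPA, had -0.37 and -0.24 at 24 h in ASXL1-MT and mock cells, against 0.20 and 0.28 at 6 h, a difference of -0.55 ± 0.10 that did not pass (adjusted p = 0.053). Rpa2 differed from IL-3 by -0.25 ± 0.11 at 24 h, Rpa3 by 0.01 ± 0.11 and the flap nuclease Fen1 by -0.09 ± 0.11.

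The genes of nucleotide supply were lower at 24 h in 4 of 5 cases without any passing against IL-3, with a median of -0.29. Of all genes tested, 27.4% passed in that comparison. Rrm1, the large subunit of ribonucleotide reductase, had 0.00, 0.06, 0.25 and -0.38 in ASXL1-MT cells and -0.11, 0.00, 0.14 and -0.31 in mock cells. The 6 h arrays were highest and the 24 h arrays lowest, and it fell by 0.54 ± 0.09 over that interval (adjusted p = 0.0487), a call lost with probe set means (-0.33, adjusted p = 0.335, the highest of a range that began at 0.00665). Rrm2, the small subunit of the same enzyme, had 0.29, 0.05, -0.04 and -0.48 in ASXL1-MT cells and 0.28, 0.04, -0.38 and -0.18 in mock cells. The IL-3 arrays were the highest, and which of the later arrays was lowest differed between cultures and between probe sets. Its 24 h difference of -0.61 ± 0.17 did not pass (adjusted p = 0.0686), and its other bright probe sets gave -0.56 and -0.62.

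Thymidylate synthase, Tyms, had the opposite sign in its 1 bright probe set, at -0.16, 0.02, -0.02 and 0.36 in ASXL1-MT cells and -0.52, -0.22, 0.39 and 0.17 in mock cells. Within each culture the IL-3 array was the lowest, but the mock array at 2 h lay below the ASXL1-MT array in IL-3, and the 24 h difference of 0.61 ± 0.22 did not pass (adjusted p = 0.121). The thymidine kinase Tk1 differed by -0.24 ± 0.13 and the dUTPase Dut by -0.38 ± 0.15, and both were lower at 24 h in ASXL1-MT cells (-0.40 and -0.48) than in mock cells (-0.05 and -0.22). At the second bright probe set of Dut the 24 h arrays lay at -0.39 in ASXL1-MT cells and -0.38 in mock cells.

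None of the 4 chromatin and histone supply genes passed in any comparison. Over all genes tested, 17.8% passed at 6 h against IL-3, 27.4% at 24 h and 6.72% between 6 and 24 h. The chromatin remodeller Hells differed by -0.43 ± 0.14 at 24 h (adjusted p = 0.0935), with -0.32 in ASXL1-MT cells and -0.34 in mock cells on those arrays. Chaf1b, a subunit of the histone chaperone CAF-1, differed by -0.31 ± 0.09 (adjusted p = 0.0769), and Uhrf1, which brings the maintenance DNA methyltransferase to new DNA, by -0.28 ± 0.10 (adjusted p = 0.118). Slbp, which binds the stem-loop of histone mRNAs, had the widest error of the list, 0.43 ± 0.29.

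Cyclin E, which with Cdk2 drives entry into S phase, is encoded by 2 genes that had opposite signs at 24 h. Ccne1 had 0.21, 0.09, -0.56 and -0.34 in ASXL1-MT cells and 0.23, 0.05, -0.27 and -0.05 in mock cells. The 6 h arrays were its lowest in both cultures, and it fell by 0.63 ± 0.13 at 6 h (adjusted p = 0.0439). Its second bright probe set differed by only -0.07 at 6 h, the probe sets of Ccne1 disagreed most at 24 h of all members (by 0.45), and with probe set means the 6 h call was lost (-0.35). Ccne2 had -0.07, 0.02, -0.09 and 0.40 in ASXL1-MT cells and -0.02, -0.26, 0.07 and 0.37 in mock cells. Both 24 h arrays were its highest, but the difference of 0.43 ± 0.14 did not pass (adjusted p = 0.0904). E2f1, a transcription factor of S phase entry, differed by -0.20 ± 0.08 (adjusted p = 0.125) at its bright probe set, and by 0.49 in the mean with its 2 dim ones.

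**Figure D4:**
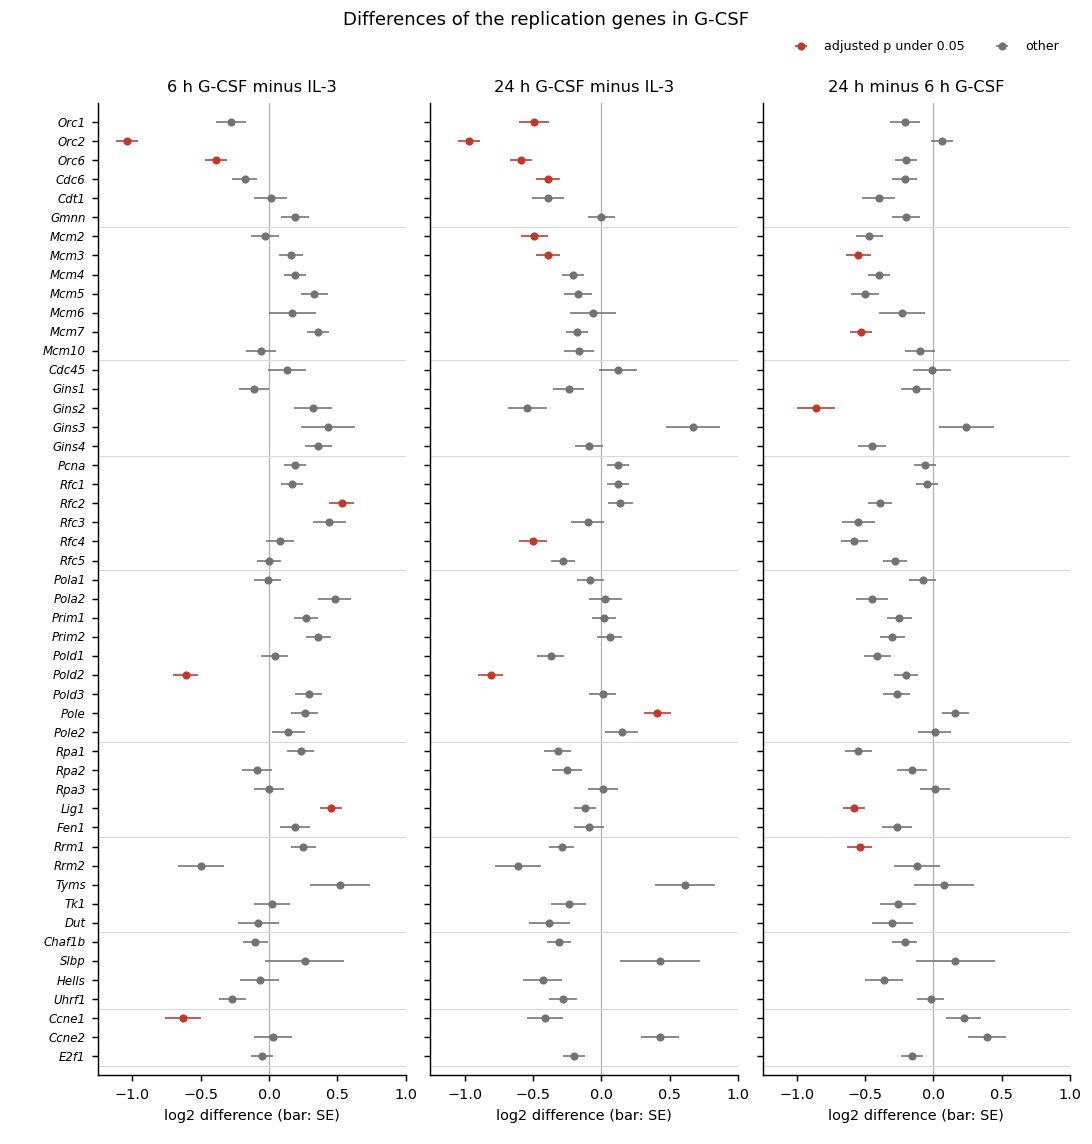
Log2 differences (horizontal, with SE bars from limma) of the 50 replication genes, down the page by role, for 6 h and 24 h in G-CSF minus IL-3 and for 24 h minus 6 h. Red points have an adjusted p under 0.05: 6 genes at 6 h, 9 at 24 h and 5 between 6 and 24 h; most points of the right panel lie left of 0.

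Probe sets of one gene mostly had the same sign at 24 h against IL-3. Other time points were not compared in this way. Of the 29 genes with several bright probe sets, 27 had 1 sign at 24 h over all of them, the exceptions being Ccne1 and Pold3. The median range between such probe sets was 0.08. Of the 89 bright probe sets 63 were lower at 24 h than in IL-3 in both cultures, while 12 genes rested on 1 probe set. The share over all bright probe sets was not computed, and several probe sets can measure the same gene. By gene, 33 of 50 (66%) were lower in both cultures, against 41.4% of the genes kept by the stricter filter.

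The second question of the design is whether mutant ASXL1 changed these genes. No member differed between ASXL1-MT and mock cells over the 4 time points in limma, and 0 of the 12894 genes did (0%). At an unadjusted p under 0.05 there were 851 genes and 0 members, and no member passed in any alternative that was run. The differences ran from -0.27 (Gins3) to 0.10 (Tyms), with a median of -0.01. In the fit with a separate ASXL1-MT effect at 24 h, 0 members and 0 genes (0%) passed, 747 genes and 1 member had an unadjusted p under 0.05, and the values ran from -0.60 (Gins3) to 0.72 (Slbp). With 3 residual degrees of freedom, a difference that did not pass is not shown to be absent.

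At single time points, with 1 array per culture and no test, the replication genes lay close together. The median difference, ASXL1-MT minus mock, was 0.01 in IL-3, 0.01 at 2 h, 0.01 at 6 h and -0.06 at 24 h. At most 1 of the 50 genes (2%) differed by more than 0.5 at any time point, against 21.1% to 22.5% of all genes tested. All 50 were measured at bright probe sets, while the genes tested include dimmer ones. Probe sets at estimated levels of 4 to 8 had a median SD of 0.71 between arrays, against 0.26 at 8 or more. A share for brighter genes alone was not computed, so this contrast does not set the replication genes apart. Their largest differences were -0.72 for Gins3 at 24 h and -0.66 for Slbp at 2 h. The Asxl1 probe sets could not check the labels, because the region and species of the introduced cDNA are not given: a bright one lay 0.27 to 0.47 lower in ASXL1-MT cells, another differed by -0.08 to -0.01, and a dim one was 0.16 to 0.99 higher.

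Related genes outside the list gave a mixed picture. Over all genes tested, 12.2% fell and 15.2% rose at 24 h, which is the background for each list here. Of 38 other replication genes tested, 7 fell and 3 rose at 24 h, with a median of -0.14. The 6 h array was the highest in both cultures for 14 of them, against 15.9% of all genes tested. For 11 of them the 24 h array was the lowest in both cultures, against 16.4%. Pold4, the smallest polymerase delta subunit, rose by 1.21 ± 0.08 and the nuclease and helicase Dna2 by 0.67 ± 0.15, while the dCTP pyrophosphatase Dctpp1 fell by 0.80 ± 0.07 and Cdca7, a partner of Hells, fell by 0.74 ± 0.09. Pold4 and Pold2, subunits of one enzyme, thus moved in opposite directions. Of 23 E2F and RB regulators 10 rose and 4 fell, with a median of 0.21. E2f2, a transcription factor of the E2F family, rose by 2.07 ± 0.12 and the kinase inhibitor Cdkn1b (p27) by 1.57 ± 0.17. Mybl2, a known E2F target, fell by 0.93 ± 0.12 and the phosphatase Cdc25a, which activates Cdk2, fell by 0.89 ± 0.13. Of 34 G2 and M phase genes tested 9 rose and 1 fell, with a median of 0.22 at 24 h, against -0.19 for the replication genes. Among them the centromeric histone Cenpa rose by 1.35 ± 0.19, the proliferation antigen Mki67 by 0.82 ± 0.11, the kinetochore protein Ndc80 by 0.79 ± 0.15 and the spindle protein Nusap1 by 0.71 ± 0.12. The difference between the lists was not tested.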

How the data were processed

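The 8 arrays were read from the authors' deposited table of 45037 probe sets. Per the series' design text in the labels, MAS 5.0 software read the intensities, and RMA is named in the submitters' processing notes. The deposited log2 values were centred on each probe set's median over the 8 arrays, since every such median lay within 5e-07 of 0. Base 2 was assumed, and no source used here states the centring, the scaling or a genome build. This departs from the planned test of uncentred values. The design text names the 430A array, with fewer probe sets, and gives 5 µg of RNA where the protocol gives 3 µg.

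Levels before centring were estimated from the rounding step of the deposited numbers; on simulated data this placed most probe sets, but not all, on the correct side of the filter. A single gene symbol was annotated for 34945 probe sets, several for 932 and none for 9160. Each gene was represented by its probe set of highest mean estimated level, rounded to a whole number, with ties settled by probe set type and name. Tested were the 12894 genes whose second-highest array reached the median level (6.24). A gene could thus pass the filter through 2 arrays. All 8 arrays were fitted with limma 3.58.1 in R 4.3.3 (lmFit, eBayes) on time point and vector, two-sided, at a Benjamini-Hochberg false discovery rate of 0.05 over all genes tested, leaving 3 residual degrees of freedom (2 for the ASXL1-MT effect at 24 h), to which the prior added 1.19. Errors are standard errors of that fit, with 2 arrays on either side for the time points and 4 for the vectors. The script was tested on simulated data, where it missed part of the true changes, 2-fold ones more often than 4-fold ones, and the share of false calls lay above the nominal rate in each run.

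Alternatives were probe set means, no filter, a filter at the 70th percentile of level (7718 genes), other scalings, other models and each array left out. Members, context lists and markers were chosen with earlier results of these data known. Members were named if they passed in a comparison, had the largest or smallest 24 h difference of their role, or were well-known S phase genes, and in context lists the 4 largest 24 h differences that passed.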

Additional observations from a re-analysis of the deposited data

How the results depend on the processing

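Counts of members passing depended on the filter, the scaling and single arrays, while nearly all signs were kept. At 6 h against IL-3 the 6 members became 1 without a filter, 16 with the stricter filter and 0 when only the compared arrays were fitted. Of all genes, 17.8% passed in the main fit, 3.24% without a filter and 45.6% with the stricter filter. At 24 h the 9 became 3, 23 and 0 under the same settings, and 5 after quantile normalization. The shares of all genes were 27.4% in the main fit, 9.98% without a filter, 55.7% with the stricter one and 21.3% after quantile normalization. At 24 h against 6 h the 5 became 0, 18 and 0, and 2 with probe set means. They became 3 with centred arrays, 0 after quantile normalization, 0 with trend and robust estimation and 11 without a vector term. The shares of all genes here were 6.72% in the main fit, 0% without a filter, 32.7% with the stricter one and 4.63% with probe set means. They were 6.64% with centred arrays, 0.574% after quantile normalization, 0.0388% with trend and robust estimation and 9.89% without a vector term. When only the compared arrays were fitted, 0% of the genes tested passed in each of these comparisons. With an array outside the comparison left out, 5.52% to 6.14% of genes passed at 6 h and 17.2% to 19.4% at 24 h. The counts were 1 at 6 h, 3 to 4 at 24 h and 0 between 6 and 24 h (0% of genes). At 2 h, for the vector and for its 24 h effect they were 0 throughout, and the last could not be fitted without a 24 h array. Fewer tested genes and fewer residual degrees of freedom belong to the filters and the smaller fits by construction. For the other changes the cause was not tested. Among 44 differences of named members under 572 alternatives, 359 kept sign and side of the threshold, 180 lost the call, 16 gained it and 17 changed sign.

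The sign changes concerned 24 h differences that had not passed. With probe set means Cdt1 came to 0.13, Mcm6 to 0.09, Pold3 to -0.21 and E2f1 to 0.49. After quantile normalization Gmnn came to 0.05 and Mcm6 to 0.01, and with centred arrays Pold3 came to -0.04 and Rpa3 to -0.05. With 1 array left out, the range was -0.10 to 0.10 for Gmnn, -0.13 to 0.01 for Mcm6, -0.19 to 0.02 for Gins4, -0.25 to 0.04 for Rfc3, -0.09 to 0.12 for Pold3 and -0.11 to 0.12 for Rpa3. The labels give no replicate numbers, and the vector term of the fit pairs the arrays of different time points by culture. Without it, 8 members passed at 6 h, 12 at 24 h and 11 between 6 and 24 h. The shares of all genes tested were 20.1%, 29.4% and 9.89%. The level of dim probe sets limits the rest: values of probe sets at an estimated level of 8 or more had a median SD of 0.26 between arrays, and those at 4 to 8 one of 0.71.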
